A study of Homo sapiens with 18 samples.

Results

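MI-1061 is an inhibitor of MDM2, and the values described here show what 24 h of it did to RNA in SJSA-1 cells that had not received a DNA-damaging drug. The comparison used 6 of the series' 18 libraries, 3 from cells given MI-1061 and 3 from cells given vehicle, chosen by their titles, and covered all 3074 genes of the deposited table. SJSA-1 is a human osteosarcoma cell line whose MDM2 gene is amplified. Cells of both groups were kept in DMSO for 48 h. For the last 24 h of the 72 h the MI-1061 group received the inhibitor at 1 µM and the DMSO group received DMSO again. A further 3 libraries from cells given the MDM2 degrader MD-224 at 1 µM for the same 24 h, and 6 from cells given neocarzinostatin (NCS, a DNA-breaking drug) at 1 µg/mL for 72 h with MI-1061 or DMSO for the last 24 h, were used to show where this response differed. All libraries came from 1 cell line, and the labels do not say whether replicates were separate cultures. The p-values thus measure the spread between samples, which the main fit estimated over all 18 libraries of the series. These include 3 from cells given NCS for 72 h with MD-224 for the last 24 h, at the same doses. The treatment protocol writes the inhibitor's name as MI-1016, and the titles were followed.

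MDM2 is a ubiquitin ligase that binds the transcription factor p53, blocks its activity and marks it for degradation. Inhibitors of this class occupy the pocket by which MDM2 holds p53, so that p53 accumulates and switches on its target genes. Among these targets is MDM2 itself, which closes a negative feedback loop, and others arrest the cell cycle, repair DNA, rewire metabolism or prepare the cell for apoptosis.

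The table is a selection: the NCS and MI-1061 libraries averaged 1.75 times the DMSO mean or more in every gene it lists (median ratio 3.0). The DMSO libraries thus took part in the choice of genes, and counts of higher and lower genes below hold for the listed genes only. Values are normalized counts, meaning reads per gene over the size factor of its library. The listed genes held 7385605 to 9678012 reads in MI-1061 libraries and 4490870 to 4834150 in DMSO libraries. Log2 values of libraries of the same group correlated across genes with Pearson's r of 0.972 to 0.983 with MI-1061 and 0.964 to 0.976 with DMSO, and no pair agreed within counting error. Replicate 1 of the MI-1061 libraries stood apart from the other 2: it held the lowest of the 3 values in 239 (70.1%) of the 341 genes that rose at least 8-fold. Whether the cells were bone-like could not be checked, since only 6 of the 25 osteoblast markers of the list used were in this selection.

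Where p53 binds DNA, its element is a pair of decamers, each with a C and a G at fixed places between purines and pyrimidines. RefSeq promoter windows (GRCh38.p14, from 250 bases before a transcript's start to 50 after it) were searched on both strands for such pairs at most 1 base apart, with at most 1 mismatch in each decamer outside the fixed C and G. Of 35116 windows 114 (0.325%) held a match. Only 2274 (74.0%) of the tested genes had a window, which is under 80%. The share of tested genes that hold a match is therefore void, and none is given. Among those 2274 genes 14 held a match. Of these 14 genes 13 were higher with MI-1061, 0 lower and 1 was not called, against 67.6% higher and 4.46% lower among all tested genes. With up to 13 bases allowed between the decamers 75 genes held a match. Of these 55 were higher, 3 lower and 17 not called, a share near the 67.6% higher of all tested genes. That 67.6% also covers genes without a window. It is therefore not a like comparison for either count, and no enrichment was tested. The 5 matched genes with the largest rises are shown here, 5′ to 3′ on the strand of the gene, with both decamers in capitals. For DDB2, which held an overlapping pair of matches, the one with fewer mismatches is shown.
PTCHD4: tgggAGGCTTGCCCAGACTTGCCCagtg
MDM2: agctGGTCAAGTTCAGACACGTTCcgaa
DDB2: gtttGAACAAGCCCtGGGCATGTTTggcg
KCNN3: ggagGGACGTGCCCaGGGCTTGCCCtttg
GLS2: ccggAGGCTTGCTGGGGCATGCGCt

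The PTCHD4 match lies at chr6:48111194-48111221 on the minus strand, its first decamer base 20 bases before the start, with 0 mismatches. In the MDM2 gene the match lies at chr12:68808919-68808946 on the plus strand, 94 bases before a start inside the gene, with 2 mismatches in all. The DDB2 match (chr11:47214975-47215003, plus strand) begins 5 bases after the start and has 0 mismatches. That of KCNN3 (chr1:154860039-154860067, minus strand) has 1 mismatch, and that of GLS2 (chr12:56488112-56488136, minus strand) has 2 and ends near the edge of its window. A match describes letters in a window and does not show binding. PTCHD4, a membrane protein of the patched family, had 3078, 2562 and 3806 normalized counts with MI-1061, against 74.4, 168 and 80.8 with DMSO. It was 30.6-fold higher (log2 4.94, SE 0.26; limma adjusted p = 1.18e-10), and the 3 and 3 libraries did not overlap. KCNN3, a potassium channel, was 5.53-fold higher. GLS2, a mitochondrial glutaminase, was 3.22-fold higher (limma adjusted p = 0.000981), a call lost with TMM scaling (adjusted p = 0.117).

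MI-1061 raised most of the listed genes. Of 3073 genes tested with limma, 2076 (67.6%) were higher with MI-1061 than with DMSO at an adjusted p under 0.05, 137 (4.46%) were lower and 860 did not pass. Fitting just the MI-1061 and DMSO libraries, 83 were lower. In 2005 genes (65.2%) all 3 MI-1061 libraries lay above all 3 DMSO libraries, and in 131 (4.26%) all 3 lay below. The median fold change over all tested genes was 1.99. Rises reached at least 2-fold in 1487 genes, 8-fold in 341 and 64-fold in 16, while 41 genes fell to at most 1/2 and 4 to at most 1/4 of their level with DMSO. These calls rest on the authors' scaling: with TMM scaling of the listed genes, which centres the median near 0 (a shift of −0.98 on the log2 scale), 942 genes (30.7%) were higher and 925 (30.1%) lower. All 137 genes called lower stayed lower with TMM, and 222 genes called higher were lower with it. The listed genes were selected for a level above DMSO with NCS and MI-1061, so TMM here centres a selected set. A gene lower with TMM thus lay below the median of the table, which does not by itself show a fall. Which scaling fits the listed genes was not tested.

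The sum of all listed values averaged 11112064 ± 647908 with MI-1061 and 4726998 ± 186864 with DMSO (SD, n = 3 each). MDM2 alone made up 22.5% of the added sum, CDKN1A 5.37%, GDF15 4.49% and CTSB 2.01%, and the 10 genes that added most made up 40.5%.

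**Figure D1:**
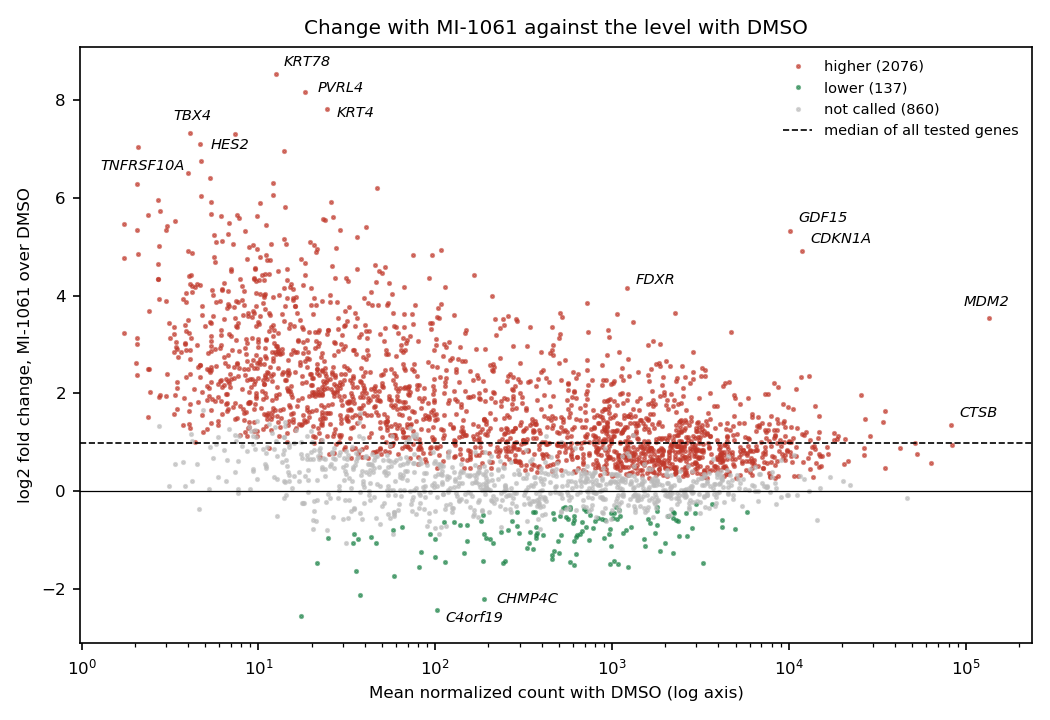
Each point is 1 of the 3073 tested genes: the horizontal axis gives the mean normalized count of the 3 DMSO libraries (log axis) and the vertical axis the log2 fold change of MI-1061 over DMSO, with 2076 genes called higher in red, 137 called lower in green and 860 not called in grey. The DMSO level on the horizontal axis also enters the change, and the changes fan out toward low DMSO levels, while MDM2, CDKN1A and GDF15 stand out at high levels.

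The genes of 5 p53 lists that the table holds rose almost throughout. Every gene of the table was at least 1.75 times its DMSO mean with NCS and MI-1061, so list members that did not rise may be missing. Of 133 genes on the lists 74 were tested, 68 were higher with MI-1061 (91.9%, against 67.6% of all tested genes) and 6 did not pass. None was lower by limma, edgeR or DESeq2, or at an unadjusted p under 0.05. Their median was 4.20-fold, against 1.99-fold over all tested genes, and 14 rose at least 8-fold. Relative to the median of the table (TMM), 49 of the 74 were higher and 9 lower, with a median log2 of 1.09.

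Among feedback genes and modifiers of p53, 12 of 14 tested members (85.7%, against 67.6% of all tested genes) rose, with a median of 4.97-fold. MDM2 had 1189842, 1828066 and 1698768 normalized counts with MI-1061, against 114681, 163950 and 126598 with DMSO. It was 11.6-fold higher (log2 3.53, SE 0.17; limma adjusted p = 4.01e-11) and accounted for 14.1% of the listed sum with MI-1061, against 2.87% with DMSO. MI-1061 does not remove the MDM2 gene, so this level is no check of the labels. PPM1D, the WIP1 phosphatase that removes activating phosphates from p53, had 6826, 9007 and 8879 normalized counts with MI-1061, against 1836, 1334 and 1611 with DMSO, a 5.17-fold difference (limma adjusted p = 1.66e-09). PHLDA3, which restrains AKT signalling, was 4.95-fold higher, and ZMAT3, an RNA-binding zinc finger protein, was 4.71-fold higher.

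Cell cycle arrest genes showed 12 of 13 tested members (92.3%, against 67.6% of all tested genes) higher, with a median of 4.61-fold. CDKN1A encodes p21, the inhibitor of cyclin-dependent kinases through which p53 stops the cell cycle. It had 365099, 349866 and 349056 normalized counts with MI-1061, against 13252, 12142 and 10129 with DMSO, which is 30.1-fold higher (limma adjusted p = 3.23e-13). BTG2, an antiproliferative cofactor of mRNA decay, had 8225, 12425 and 10696 with MI-1061 and 598, 798 and 764 with DMSO, 14.4-fold higher (limma adjusted p = 1.53e-10). Polo-like kinase genes rose less, PLK3 by 6.17-fold and PLK2 by 3.29-fold. GADD45A, a stress protein of the G2 checkpoint, was 4.61-fold higher, with DMSO values that spread from 2416 to 6327 normalized counts.

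Of the death receptor and apoptosis genes, 17 of 19 tested members (89.5%, against 67.6% of all tested genes) were higher, with a median of 3.42-fold. FAS, the receptor for FAS ligand, had 7748, 9649 and 10521 normalized counts with MI-1061, against 995, 954 and 883 with DMSO (9.78-fold; limma adjusted p = 9.51e-12). The TRAIL receptor genes moved from different levels. TNFRSF10A had 467, 301 and 407 normalized counts with MI-1061, against 2.19, 0.961 and 3.07 with DMSO (131-fold; limma adjusted p = 1.67e-08), a size that depended on the pseudocount (log2 7.04 with 1 and 5.80 with 5). TNFRSF10B had 64670, 58459 and 76021 normalized counts with MI-1061 and 12211, 14248 and 12378 with DMSO, 5.11-fold higher. The decoy receptor TNFRSF10D was 9.53-fold higher, with 46996, 31291 and 50832 against 6199, 2676 and 5202. The MI-1061 libraries lay above the DMSO libraries for each of these 3 receptors, as they did in 65.2% of all tested genes.

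Among BH3-only and BAX-type genes of the same list BBC3, BIK, BCL2L11, BAX and BAK1 were higher and PMAIP1 did not pass. BBC3 (PUMA), which frees BAX by binding antiapoptotic proteins, had 4270, 7824 and 5705 normalized counts with MI-1061, against 366, 802 and 395 with DMSO (11.8-fold; limma adjusted p = 6.03e-09). BAX, which opens the outer mitochondrial membrane, was 2.63-fold higher (limma adjusted p = 1.15e-08), and its relative BAK1 2.42-fold. BIK was 3.42-fold higher and BCL2L11 (BIM) 1.70-fold. With TMM the calls for BAK1, BIK and BCL2L11 were lost, BCL2L11 at a log2 of −0.23, and BCL2L11 also missed the threshold without MI-1061 replicate 2 (adjusted p = 0.075) or replicate 3 (adjusted p = 0.0612). PMAIP1 (NOXA), another BH3-only gene, had 3769, 4888 and 4496 with MI-1061 and 3628, 6046 and 2629 with DMSO, and these overlapped (1.13-fold; limma adjusted p = 0.48). Without DMSO replicate 2 PMAIP1 passed (log2 0.50, limma adjusted p = 0.0174), without DMSO replicate 3 its log2 was −0.10 (adjusted p = 0.658), and relative to the table's median it was lower (log2 −0.82, adjusted p = 0.00307). CASP1, an inflammatory caspase on the same list, was at 0.80-fold and did not pass (limma adjusted p = 0.221), but was lower with TMM (log2 −1.31, adjusted p = 0.000132). TNFSF9, a ligand of the TNF family, was 8.46-fold higher, and AEN, an apoptosis-enhancing nuclease, 4.88-fold.

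DNA repair and nucleotide supply genes numbered 7 higher of 8 tested (87.5%, against 67.6% of all tested genes), with a median of 4.02-fold. RRM2B, the p53-induced subunit of ribonucleotide reductase, had 17373, 24224 and 21303 normalized counts with MI-1061, against 2730, 2811 and 3075 with DMSO (7.24-fold; limma adjusted p = 4.25e-11). DDB2 and XPC, which recognise ultraviolet damage for excision repair, were 5.62-fold and 4.62-fold higher. The DDB2 libraries held 7820, 10196 and 10194 normalized counts with MI-1061 and 1606, 1633 and 1739 with DMSO, a narrow spread in both groups. These repair genes rose in cells given no DNA-damaging drug.

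All 20 tested members of the list for metabolism, redox and mitochondria were higher in the authors' scaling, against 67.6% of all tested genes. Their median was 3.44-fold, and 13 were higher and 1 lower with TMM. FDXR, the mitochondrial ferredoxin reductase, had 16865, 25556 and 22562 normalized counts with MI-1061, against 972, 1482 and 1211 with DMSO (17.7-fold; limma adjusted p = 1.98e-10). SPATA18, a protein of mitochondrial quality control, was 10.5-fold higher, with 1839, 3229 and 2653 against 198, 331 and 206. SESN1, a stress-induced sestrin that restrains mTORC1, was 8.95-fold higher and TIGAR, which slows glycolysis, 5.86-fold. GDF15, a stress-induced hormone listed with the TGF-beta family, had 255976, 319735 and 314112 normalized counts with MI-1061, against 4563, 22047 and 3940 with DMSO. DMSO replicate 2 was thus well above the other 2 for GDF15, whose difference was 40.2-fold with it (limma adjusted p = 1.27e-08) and, on the log2 scale, 6.12 without it in place of 5.33.

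**Figure D2:**
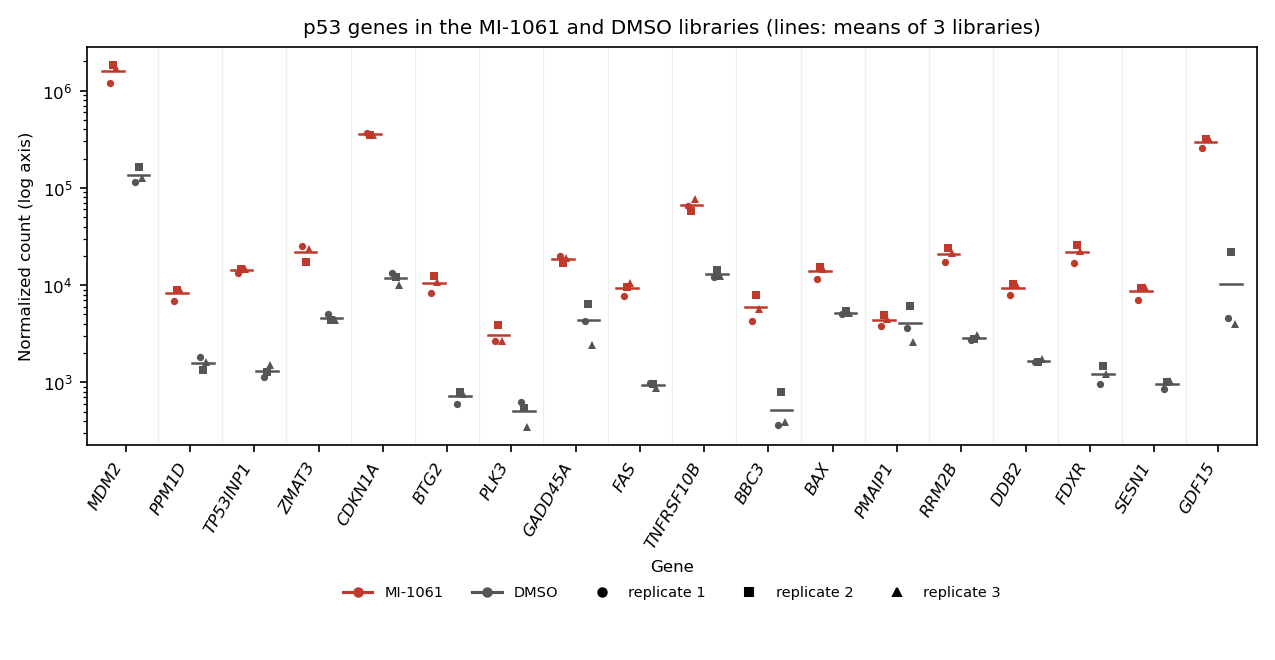
Normalized counts (log axis) of 18 p53 genes in the 3 MI-1061 libraries (red) and the 3 DMSO libraries (grey); marker shapes give the replicate number and lines the group means. MI-1061 libraries lie above DMSO libraries for each gene shown except PMAIP1, and GDF15 shows the high DMSO replicate 2 at 22047.

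Lysosomal and autophagy genes rose by smaller factors, and their direction as groups depended on the scaling. Of 27 tested lysosome genes 21 (77.8%, against 67.6% of all tested genes) were higher. Their median of 1.78-fold was below the 1.99-fold of all tested genes. With TMM 5 lysosome genes were higher and 10 lower, with a median log2 of −0.17. CTSD, the aspartic protease cathepsin D, had 90088, 92671 and 90619 normalized counts with MI-1061, against 35333, 33282 and 33842 with DMSO (2.67-fold; limma adjusted p = 1.19e-09). CTSB, a cysteine cathepsin, was 2.55-fold higher, and the proton pump subunit ATP6V1A 2.54-fold. These 3 genes were higher under both scalings. Of 12 autophagy genes 7 (58.3%) were higher with a median of 1.42-fold, both below the values of all tested genes. With TMM 3 autophagy genes were higher and 8 lower (median log2 −0.49). SQSTM1, the cargo receptor p62, and MAP1LC3B, the membrane tag LC3, were higher under both scalings, 3.93-fold and 3.91-fold in the authors' scaling.

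Genes of stratified epithelia and of cell junctions included some of the largest rises. Of 12 tested keratin and cornified envelope genes 10 (83.3%) were higher, with a median of 2.65-fold; under TMM scaling 5 were higher and 1 lower. Of 21 junction genes 15 (71.4%) were higher, near the 67.6% of all tested genes, with a median of 2.34-fold; under TMM scaling 6 were higher and 4 lower. KRT3, a keratin known from the corneal epithelium, had 1668, 3577 and 2367 normalized counts with MI-1061, against 65.7, 167 and 53.2 with DMSO (28.6-fold; limma adjusted p = 5.42e-08). KRT79 was 12.4-fold higher, with 4371, 9053 and 6087 against 442, 630 and 447. KRT3, KRT4, KRT79 and KRT78 are neighbours among the protein-coding genes of chromosome 12 (52789685 to 52848994, GRCh38.p14), and all 4 were called higher. In each of these 4 genes MI-1061 replicate 1 was the lowest of the 3.

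The nectin gene PVRL4 (now NECTIN4), an adhesion molecule of epithelial junctions, had 3271, 6171 and 4874 normalized counts with MI-1061, against 35.0, 7.69 and 12.3 with DMSO. That is 287-fold higher (log2 8.17, SE 0.40; limma adjusted p = 4.25e-11). CLDN6, a tight junction claudin, had 112, 127 and 112 normalized counts with MI-1061 and 2.19, 0.961 and 2.05 with DMSO. Its DMSO values stood for 5 reads in all, so its size depended on the pseudocount (log2 5.46 with 1 and 4.18 with 5). In the list of integrins and matrix proteins 16 of 22 tested members (72.7%) were higher, with a median of 2.04-fold, both close to the values of all tested genes, and with TMM 6 were higher and 5 lower.

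Markers of striated muscle and endothelium were among the genes that rose. Of 45 striated muscle genes on the list only 9 were tested. Among these 9 genes 8 (88.9%, against 67.6% of all tested genes) were higher, with a median of 10.8-fold. Their summed normalized count was 3616 to 5519 with MI-1061, against 327 to 499 with DMSO. RYR1, the calcium release channel of muscle, had 792, 1488 and 1532 with MI-1061 and 15.3, 42.3 and 21.5 with DMSO (48.5-fold; limma adjusted p = 3.49e-09). TTN (titin) was 31.3-fold higher, the glycogen phosphorylase PYGM 20.5-fold and NEB (nebulin) 10.8-fold. Only 2 of 13 endothelial markers were tested, and both were higher. VWF was at 1513, 2299 and 2535 against 89.7, 89.4 and 46.0, and KDR, a receptor for VEGF, was 5.04-fold higher. Their sum was 1943 to 3235 with MI-1061 and 150 to 232 with DMSO. Of 25 haematopoietic markers 6 were tested, and 4 of these (66.7%) were higher, a share like that of all tested genes. The list's sum was 2902 to 3816 with MI-1061, against 578 to 1275 with DMSO. The B cell receptor component CD79A was 27.0-fold higher, with 170, 335 and 297 normalized counts against 9.85, 7.69 and 8.19. No listed member of the 3 lists was at 0 in any of the 6 libraries, and members outside the table were not analysed here. The labels name a single cell line, and whether other cells contributed was not tested.

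Signalling lists differed in how far they rose. Axon guidance genes had 20 of 24 tested members (83.3%, against 67.6% of all tested genes) higher, with a median of 3.67-fold. Under TMM scaling 12 of them were higher and 3 lower. EFNB1, an ephrin ligand, had 10292, 15723 and 13303 normalized counts with MI-1061, against 974, 1297 and 922 with DMSO (12.3-fold; limma adjusted p = 7.54e-10). PLXNB2, a semaphorin receptor, was 5.01-fold higher at a high level, with 49838, 61341 and 65906 against 11359, 12039 and 11683. EPHB3, an ephrin receptor, was 6.42-fold higher, and the netrin receptor UNC5B 10.2-fold. SEMA3C, a secreted semaphorin, was lower at 0.69-fold (limma adjusted p = 0.00714), with libraries that overlapped at 1578, 1697 and 1223 against 2853, 2166 and 1640. The SEMA3C call was lost when just MI-1061 and DMSO libraries were fitted (adjusted p = 0.0624) and without DMSO replicate 1 (adjusted p = 0.0546).

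HES2, a hairy-type repressor, had 459, 1180 and 661 normalized counts with MI-1061, against 4.38, 7.69 and 2.05 with DMSO, and was 136-fold higher (limma adjusted p = 2.06e-10). Its size depended on the pseudocount, with a log2 of 7.09 with 1 and 6.25 with 5. DLL4, a Notch ligand, was 18.7-fold higher (log2 4.23, and 3.45 without DMSO replicate 3). The Notch and hairy family as a whole had 4 of 7 tested members (57.1%) higher, below the 67.6% of all tested genes, and with TMM 3 were higher and 3 lower. LGR6, a receptor for R-spondins, was 50.3-fold higher (log2 5.65, and 6.35 without DMSO replicate 2), and 7 of 9 tested WNT pathway genes (77.8%) were higher with a median of 2.63-fold, and 3 higher and 0 lower with TMM. In the TGF-beta and BMP list 9 of 11 (81.8%, against 67.6% of all tested genes) were higher, with a median of 2.89-fold. With TMM 5 of that list were higher and 3 lower. Its growth factor gene BMP2 rose, at 1120, 1997 and 1622 against 612, 286 and 339 (3.93-fold). Of 6 tested EGF family genes 5 (83.3%) were higher, with a median of 2.57-fold, and 1 was higher and 1 lower with TMM. Of 6 tested osteoblast genes 5 (83.3%) were higher (median 3.08-fold, 3 higher and 1 lower with TMM). They included the homeobox genes MSX2 at 4.48-fold and DLX3 at 5.50-fold. The collagen gene COL1A2 of this list did not pass, at 0.66-fold (limma adjusted p = 0.0663), with libraries that overlapped. It was the member lower with TMM (log2 −1.59, limma adjusted p = 0.000232). Phosphoinositide enzymes had 6 of 9 (66.7%) higher and 1 lower, a share near that of all tested genes. Their median of 1.53-fold was below the 1.99-fold of all tested genes, and 1 was higher and 5 lower with TMM.

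The series' title names the innate immune response, and the interferon list showed a mixed picture. Of 14 tested members 8 (57.1%) were higher and 6 did not pass, with a median of 1.76-fold, below that of all tested genes, and with TMM 4 were higher and 6 lower (median log2 −0.17). The risers included TRIM22, which is also a p53 target, at 13680, 15259 and 17436 normalized counts with MI-1061, against 2162, 3225 and 3275 with DMSO (5.42-fold; limma adjusted p = 8.65e-10). STAT3, a cytokine-activated transcription factor, was 3.23-fold higher. MX1, an antiviral GTPase and textbook interferon target, had 656, 1009 and 719 with MI-1061 and 634, 1163 and 853 with DMSO, which overlapped (0.91-fold; limma adjusted p = 0.746), though MX1 was lower with TMM (log2 −1.13, adjusted p = 0.0129). Of 10 inflammasome genes 6 were higher with a median of 2.03-fold, near the values of all tested genes, and with TMM 3 were higher and 4 lower. IL1B, the cytokine that caspase-1 matures, had 1219, 1748 and 433 normalized counts with MI-1061 and 124, 73.0 and 34.8 with DMSO (14.1-fold; limma adjusted p = 7.36e-07). None of 40 E2F and mitosis genes was in the table, so proliferation genes were not analysed here.

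**Figure D3:**
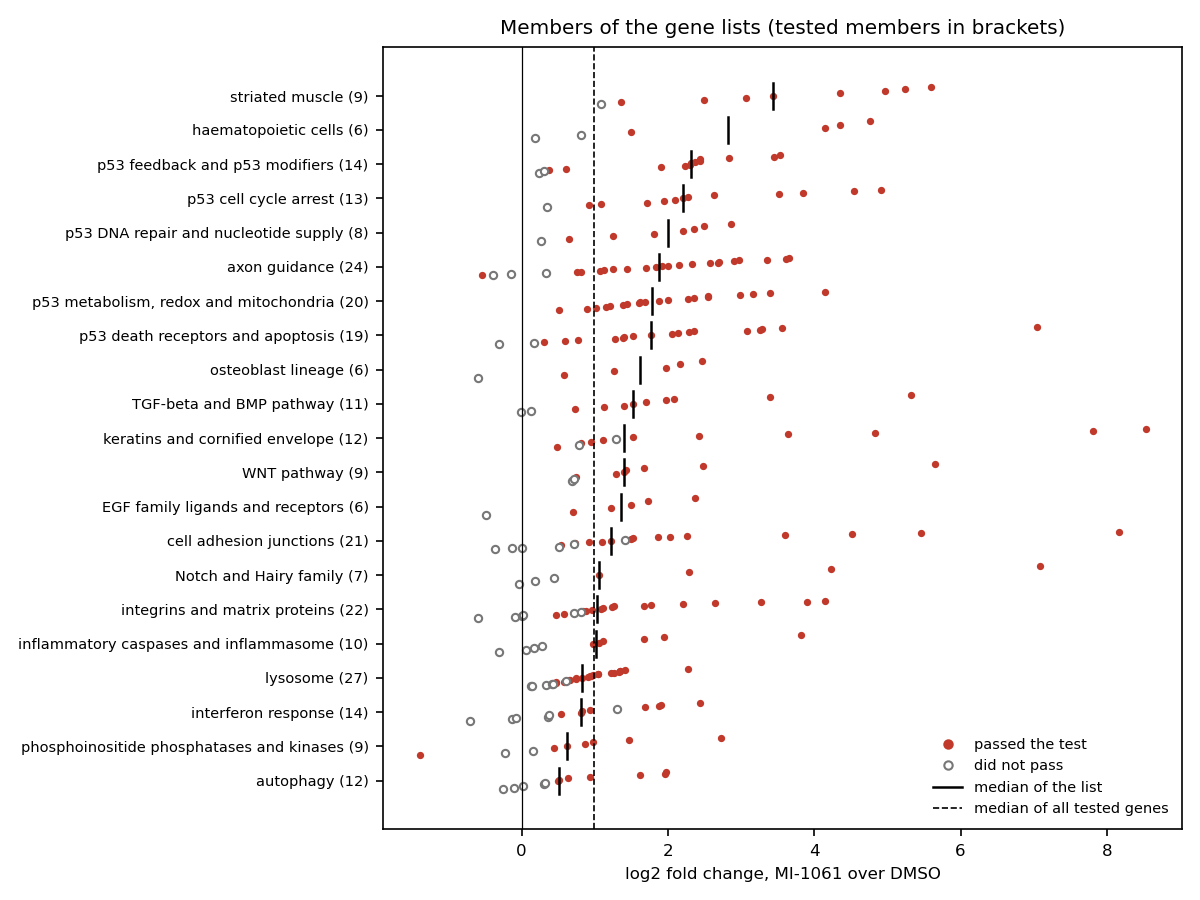
Each row is a gene list with at least 5 tested members, each point 1 member and its log2 fold change of MI-1061 over DMSO; filled red points passed the limma test, open points did not, short bars mark the list's median and the dashed line the median of all tested genes (log2 1.00). The list medians run from 0.51 for autophagy to 3.43 for striated muscle.

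The 20 largest rises, ranked among genes with a current symbol, a mean of at least 50 and no overlap between groups, ran from 55.9-fold to 369-fold. CDC42BPG, a kinase that acts downstream of CDC42, had 885, 2302 and 2209 normalized counts with MI-1061, against 8.75, 25 and 8.19 with DMSO (125-fold; limma adjusted p = 3.95e-10). SHISA7, a transmembrane protein known from synapses, was nearly the same in every MI-1061 library at 404, 390 and 404, against 2.19, 7.69 and 2.05 with DMSO (91.3-fold; log2 6.51, and 5.55 with a pseudocount of 5). RRAD, a GTPase of the RGK family, was 59.9-fold higher, at 943, 2308 and 1632 against 37.2, 19.2 and 20.5. TNFSF4, a ligand of the TNF family, was 60.1-fold higher (log2 5.91, and 5.10 with a pseudocount of 5). MI-1061 replicate 1 held the lowest MI-1061 value in 15 of these 20 genes. That its values lay above every DMSO value follows from the ranking, which required no overlap. CSMD3, a large transmembrane gene, had 2515, 1070 and 3186 with MI-1061, against uneven values of 86.5, 3.84 and 50.1 with DMSO. Its log2 of 6.20 became 4.94 without DMSO replicate 2 and 7.02 without DMSO replicate 1.

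**Figure D4:**
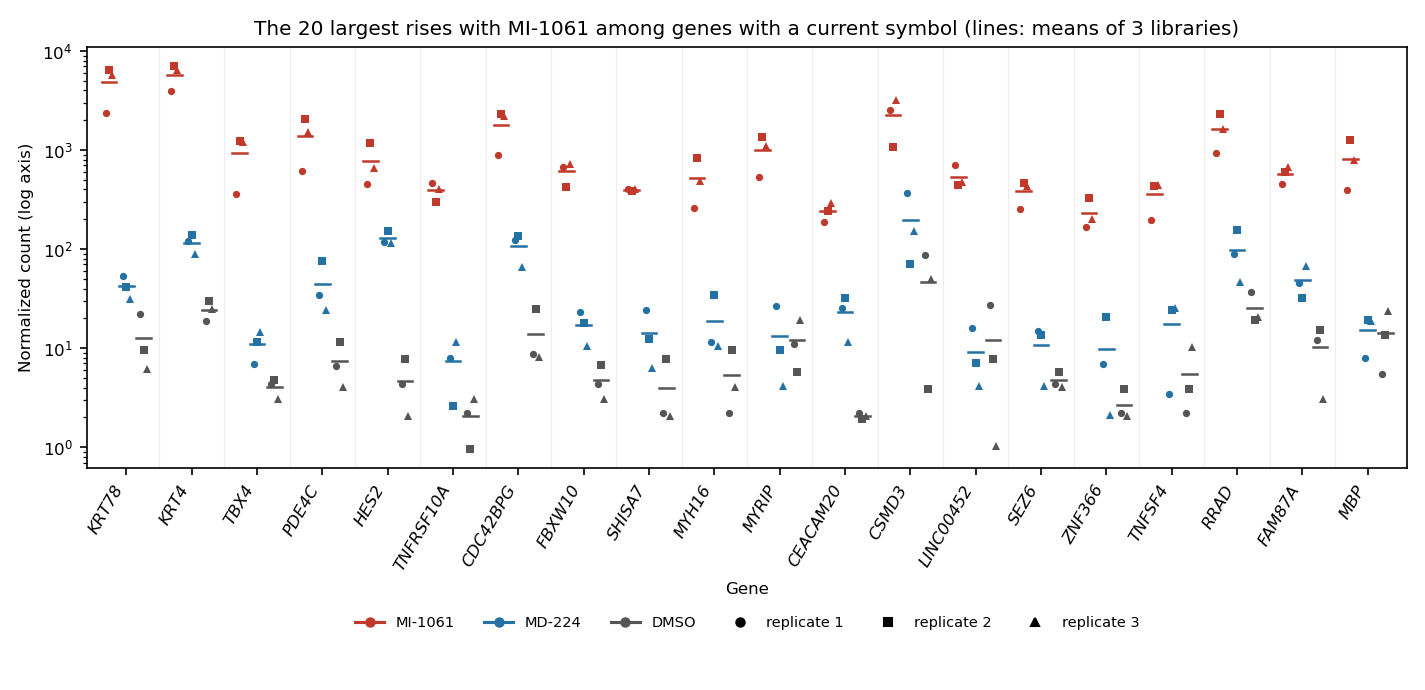
Normalized counts (log axis) of the 20 largest rises in MI-1061 (red), MD-224 (blue) and DMSO (grey) libraries; marker shapes give the replicate number and lines the group means. By the ranking rule the 3 MI-1061 values lie above the 3 DMSO values in each gene. MI-1061 replicate 1 is the lowest of its group in 15 of 20.

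Falls were fewer and smaller among the listed genes. The table holds only genes at least 1.75 times their DMSO mean with NCS and MI-1061, which limits the falls it can show. C4orf19 fell to 29.6, 14.4 and 12.3 normalized counts with MI-1061, against 139, 67.3 and 99.2 with DMSO (0.19-fold; limma adjusted p = 1.07e-05). TMEM255A, a membrane protein gene, had 629, 363 and 320 with MI-1061 and 1388, 1064 and 1263 with DMSO (0.34-fold). DNAJC18, a chaperone of the endoplasmic reticulum, had 356, 365 and 426 with MI-1061 and 985, 1032 and 1222 with DMSO (0.36-fold; limma adjusted p = 9.62e-07). AK4, a mitochondrial adenylate kinase, was also at 0.36-fold, with 428, 354 and 274 against 1022, 880 and 1021. These genes were named by a rule that required no overlap between groups, so every MI-1061 library was below every DMSO library.

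Signalling genes among the 20 falls included INPP4B, a phosphatase of phosphoinositides, at 211, 214 and 109 normalized counts with MI-1061 and 514, 523 and 337 with DMSO (0.38-fold; limma adjusted p = 8.87e-05). SYK, a tyrosine kinase of immune receptors, was at 0.43-fold and the CARD family gene CARD6 at 0.37-fold. DERA, an enzyme that breaks down deoxyribose phosphate, had 1210, 904 and 709 with MI-1061, against 2375, 1860 and 2408 with DMSO (0.42-fold). HOXA5, a homeobox gene, had 74.6, 48.0 and 15.4 with MI-1061 and 86.5, 105 and 106 with DMSO (0.39-fold; limma adjusted p = 0.00424). The HOXA5 call was lost in edgeR (adjusted p = 0.0511) and when just MI-1061 and DMSO libraries were fitted (adjusted p = 0.0501), and its log2 was −0.71 without MI-1061 replicate 3 in place of −1.35. LURAP1L, at 0.41-fold, rested in part on DMSO replicate 2 (889, against 240 and 253 in the other DMSO libraries), and its log2 was −0.68 without it in place of −1.30. MI-1061 replicate 3 held the lowest MI-1061 value in 14 of the 20 falls.

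**Figure D5:**
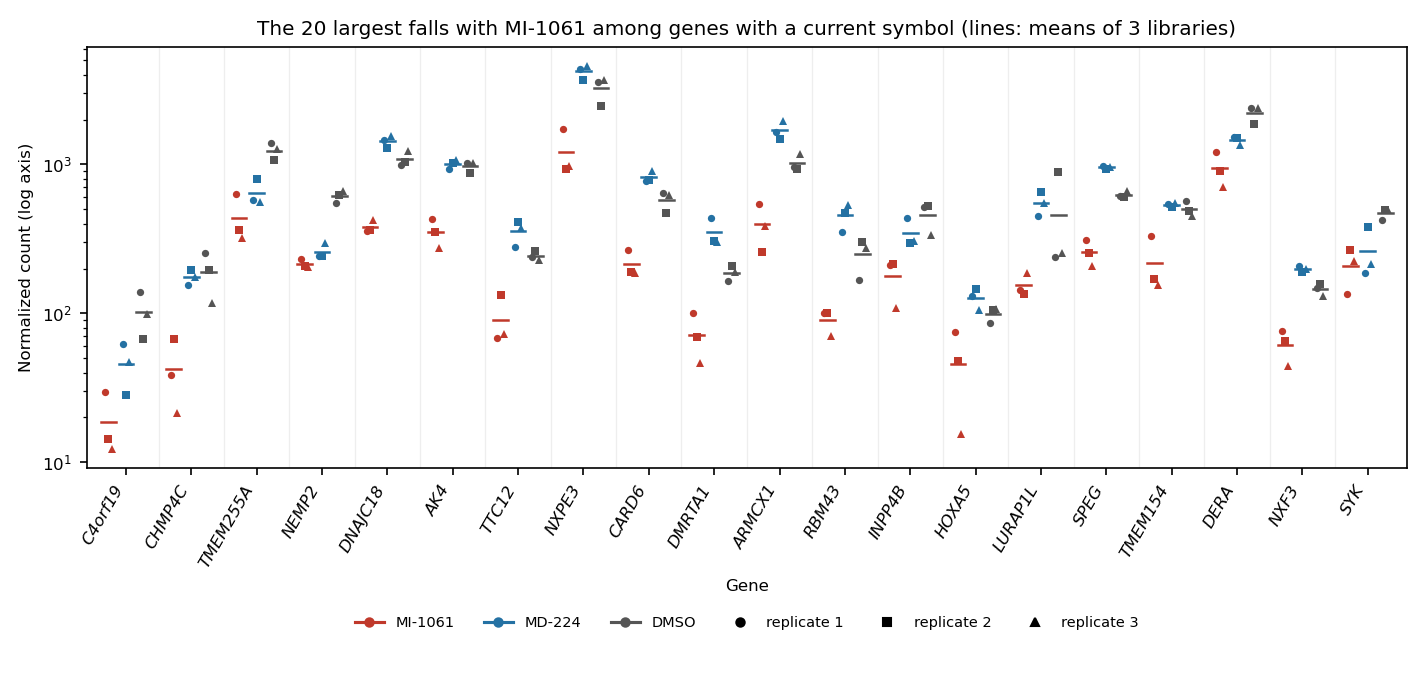
Normalized counts (log axis) of the 20 largest falls in MI-1061 (red), MD-224 (blue) and DMSO (grey) libraries; marker shapes give the replicate number and lines the group means. By the ranking rule the 3 MI-1061 values lie below the 3 DMSO values in each gene, and LURAP1L shows 1 high DMSO value at 889.

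Of 212 tested long noncoding RNA genes 152 (71.7%) were higher, with a median of 2.94-fold, and of 2678 protein-coding genes 1799 (67.2%), with a median of 1.90-fold. The noncoding genes had a median DMSO mean of 29.3 normalized counts, against 374 for the coding ones. LINC-PINT, a p53-induced noncoding RNA, had 845, 883 and 618 normalized counts with MI-1061 and 221, 225 and 209 with DMSO (3.53-fold; limma adjusted p = 1.95e-07). UNC5B-AS1 was 26.9-fold higher and its partner gene UNC5B 10.2-fold. Whether counting used strand is not given in the sources used here, so reads of the antisense gene and of UNC5B cannot be told apart.

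MD-224 was given at the same dose and for the same 24 h, and 1 pair of compounds was compared. MI-1061 libraries were higher than MD-224 libraries in 1531 genes (49.8%) and lower in 381 (12.4%), by limma adjusted over all tested genes. With TMM scaling these counts were 941 and 847. Of the 74 p53 genes tested, 57 (77.0%) were higher with MI-1061 than with MD-224 and 2 lower, with a median ratio of 1.97. CDKN1A had 104006, 83659 and 84506 normalized counts with MD-224, below the MI-1061 libraries by 3.93-fold (MI-1061 over MD-224; limma adjusted p = 3.32e-08). MDM2 was 3.82-fold higher with MI-1061 than with MD-224 (log2 1.93, SE 0.17; limma adjusted p = 7.94e-08), and PPM1D 4.32-fold. BAX differed by 1.27-fold (log2 0.35, SE 0.11; limma adjusted p = 0.0142).

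Some genes differed far more between the compounds than the median of the p53 genes. The naming rule took the 8 largest differences in each direction, so their size follows from the choice. The 341 genes that rose at least 8-fold with MI-1061 had a median ratio of MI-1061 over MD-224 of 7.50. The p53 list member TNFRSF10A had a large difference (MI-1061 over MD-224, log2 5.71, and 5.05 with a pseudocount of 5). ARC, a cytoskeletal gene of neuronal activity, had 768, 1274 and 1330 normalized counts with MI-1061 and 25.2, 34.8 and 14.7 with MD-224 (44.6-fold; limma adjusted p = 3.52e-09), against 18.6, 34.6 and 16.4 with DMSO. MYRIP, which links myosin to secretory organelles, was 81.1-fold higher with MI-1061 than with MD-224 (log2 6.34, and 6.97 without MD-224 replicate 1), and the myelin gene MBP 47.9-fold. In the other direction PALMD had 188, 94.7 and 154 with MI-1061 and 850, 863 and 891 with MD-224 (0.16-fold; limma adjusted p = 7.86e-07), against 199, 402 and 386 with DMSO. SATB1, an organiser of chromatin, had 333, 386 and 352 with MI-1061 and 1352, 1710 and 1792 with MD-224 (0.22-fold; limma adjusted p = 1.06e-08), against 566, 770 and 639 with DMSO. MI-1061 libraries were below DMSO libraries for SATB1 while MD-224 libraries were above them.

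The response to MI-1061 after NCS minus the response without NCS was larger in 721 genes (23.5%) and smaller in 639 (20.8%), by limma's interaction contrast over all tested genes. Since every listed gene was chosen for its level with NCS and MI-1061, the choice of genes fixes part of the direction for genes that MI-1061 alone lowered, of which 123 of 137 had a larger response after NCS and 0 a smaller one. Among the 74 p53 genes 23 were larger and 12 smaller, with a median difference of 0.05 on the log2 scale, against 0.06 over all tested genes. For MDM2 the response was 13.5-fold after NCS and 11.6-fold without it, a difference in log2 of 0.22 with an SE of 0.24 that did not pass (limma adjusted p = 0.476). For CDKN1A it was 11-fold after NCS and 30.1-fold without it (difference −1.45, SE 0.22; limma adjusted p = 6.98e-05). CDKN1A averaged 64565 normalized counts with NCS and no compound, against 11841 with DMSO. Of the 9 tested striated muscle genes 7 (77.8%) had a smaller response after NCS. Among the 341 genes that rose at least 8-fold with MI-1061 alone 247 (72.4%) did, so the muscle share is near that of strong risers. Of the 12 keratin and cornified envelope genes 5 had a smaller response after NCS and 1 a larger one. RYR1 rose 2.82-fold after NCS and 48.5-fold without it, a difference of −4.11 on the log2 scale (SE 0.59; limma adjusted p = 4.46e-05).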

How the data were processed

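Poly(A) RNA of SJSA-1 cells was sequenced, and the authors deposited 1 table of normalized counts (a signal: read counts divided by a size factor of each library, as the values show). The submitters' processing notes list GRCh38 together with featureCounts 1.6.3, HISAT2 2.0.5.2 and DESeq2 2.11.40.6. What each did, and whether counting used strand, is not given in the sources used here. In the 9 libraries without NCS 100% of values were whole multiples of 1 read (tolerance 0.01 reads), so the reads behind them were worked out (size factors 0.651 to 1.55). Read counts limit precision for counting error only, and the depth of whole libraries is unknown, since the table is a selection. Of 3074 names 2795 matched a RefSeq symbol and 203 a synonym only.

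Values were analysed as log2(value + 1), which understates changes of low genes, for the 3073 genes with at least 10 in at least 3 libraries. The main test was limma 3.58.1 (R 4.3.3) with a trended prior variance and all 6 groups in 1 fit. P-values are two-sided and Benjamini-Hochberg adjusted over all tested genes, with calls under 0.05, and a fold change is 2 raised to the estimate. Alternatives were edgeR 4.0.16 (quasi-likelihood) and DESeq2 1.42.0 on recovered reads, TMM scaling, other pseudocounts (0.5 and 5) and filters, fewer groups in the fit, a constant prior variance, a replicate block, and leaving out each library. The limma, edgeR and DESeq2 steps were tested on simulated data. There limma recovered 71% of 4-fold, 38.5% of 2-fold and 12.1% of 1.5-fold changes, with 5 false calls. A gene that did not pass is thus not shown to be unchanged. Figures used matplotlib 3.10.9 (Python 3.11.15).

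Same-numbered MI-1061 and DMSO libraries deviated together (residual correlations across genes 0.261, 0.245 and 0.116), so by a limit of 0.1 the numbers pair these libraries, though the labels state no pairing. The same held for MI-1061 and MD-224 (0.405, 0.434 and 0.102). Replicate number was not a term of the main model.

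The comparison, the 24 gene lists and the rule for named genes were chosen with earlier results of these data known. The rule took MDM2, MDM4, CDKN1A and GDF15, the 20 largest rises and 20 largest falls among called genes whose groups did not overlap, with a current symbol and a mean of 50 or more, 8 genes in each direction of the other contrasts, the most abundant risers, noncoding risers, neighbouring risers, risers with a promoter match, and from each list at most 4 members by smallest p plus members that did not rise. MDM4 is not in the table. The text names part of these. Further list members (such as PPM1D, BAX, BBC3, GADD45A, SPATA18, TNFRSF10D, BIK, BAK1, BCL2L11 and UNC5B) were added for their known roles after their values were seen. Some genes of the lists, though counted, are not reported here by name.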

Additional observations from a re-analysis of the deposited data

Results flagged for a closer look

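For 16 genes, taken as the 8 largest in each direction, the response to MI-1061 after NCS differed from the response without NCS in limma's interaction contrast, adjusted over all tested genes. The groups are those of the response after NCS (NCS and MI-1061 over NCS) and of the response without it (MI-1061 over DMSO), and the difference is given on the log2 scale.

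Of the 8 larger responses after NCS 3 were in genes that MI-1061 alone lowered, a direction fixed in part by the choice of listed genes for a high level with NCS and MI-1061. DERA was at 8.87-fold after NCS and 0.42-fold without (difference 4.41, SE 0.25; adjusted p = 2.05e-09), NEMP2 at 7.25-fold and 0.35-fold (difference 4.37), and KCTD12, a potassium channel domain protein, at 7.01-fold and 0.52-fold (difference 3.75). Every such response passed its own test. TMEM40 was at 90.3-fold after NCS and 4.78-fold without (difference 4.24), DRAXIN, a secreted axon guidance protein, at 121-fold and 7.83-fold (difference 3.94), and AREG, the EGF family ligand amphiregulin, at 65.7-fold and 5.18-fold (difference 3.67). PLCXD2 was at 23.4-fold after NCS and 1.83-fold without (difference 3.67, SE 0.50). Its rise without NCS (log2 0.87, adjusted p = 0.0334) was lost without MI-1061 replicate 1 (log2 0.63), MI-1061 replicate 2, DMSO replicate 1 or DMSO replicate 2, in edgeR and when just MI-1061 and DMSO libraries were fitted (adjusted p 0.0624 to 0.143), and its log2 was −0.10 with TMM. SFN, the 14-3-3 sigma protein of cell cycle arrest, was at 125-fold after NCS and 4.26-fold without (difference 4.87, SE 1.2; adjusted p = 0.00365). SFN rests on uneven libraries: with NCS and MI-1061 its SD of 3559 was close to its mean of 3878, and without NCS its MI-1061 values were 59.2, 312 and 64.6. The difference for SFN was 4.16 without NCS and MI-1061 replicate 2 (adjusted p = 0.0127) and 5.64 without MI-1061 replicate 2 (adjusted p = 0.00134). Its rise without NCS was lost without MI-1061 replicate 2 (log2 1.32, adjusted p = 0.196), DMSO replicate 2 (log2 1.78, adjusted p = 0.107) or DMSO replicate 3 (log2 2.10, adjusted p = 0.0684), with a constant prior variance (adjusted p = 0.0515) and with TMM (log2 1.12, adjusted p = 0.26).

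The 8 smaller responses after NCS were in genes that rose strongly with MI-1061 alone. That rise is subtracted in the difference, so picking the most negative differences favours such genes. CEACAM20, a cell adhesion molecule, averaged 8.84 ± 2.25 normalized counts when MI-1061 followed NCS, against 15.3 ± 8.01 with NCS, while without NCS it averaged 242 ± 54.3 with MI-1061, against 2.05 ± 0.13 with DMSO (SD, n = 3 each), a difference of −6.94 (SE 0.61; limma adjusted p = 4.81e-07). For FBXW10 the response was 1.12-fold after NCS and 107-fold without (difference −6.58), for ZNF366 1.19-fold and 62.0-fold (difference −5.70), for the sulfotransferase gene GAL3ST1 1.47-fold and 51.0-fold (difference −5.12), and for TTN 1.00-fold and 31.3-fold (difference −4.96). ASB5 was at 0.42-fold after NCS (adjusted p = 0.0124) and 25.6-fold without (difference −5.94). The keratins KRT78 and KRT4 rose in both settings, KRT78 9.91-fold after NCS and 369-fold without (difference −5.22) and KRT4 7.34-fold and 225-fold (difference −4.94). Low values make these sizes depend on the pseudocount: with 5 in place of 1 the differences were −5.60 for CEACAM20, −5.85 for FBXW10, −5.05 for ASB5, −4.68 for ZNF366 and −4.46 for GAL3ST1.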

How the results depend on the processing

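With TMM scaling MI-1061 against DMSO gave 942 genes higher and 925 lower, MI-1061 against MD-224 gave 941 and 847, and 9 p53 genes were called lower. These TMM calls are relative to the median of the selected genes in the table. Fitting just the MI-1061 and DMSO libraries, 83 genes were lower than with DMSO in place of 137. Genes with a promoter match held 2 called higher and 0 lower with no mismatch, and 55 higher, 3 lower and 17 not called with up to 13 bases between decamers, in place of 13 higher and 0 lower. EdgeR called 1898 genes higher and 93 lower and DESeq2 1953 and 105. Leaving out 1 library gave 1965 to 2048 higher and 99 to 154 lower, and 65 to 69 p53 genes higher. With the replicate block 2206 genes were higher and 185 lower. No block changed a count by over 1.5 times, and for the genes named it lost no call. Signs turned for PMAIP1 (log2 −0.82 with TMM, and −0.10 to 0.50 leaving out 1 library), MX1 (log2 −0.35 to 0.086 leaving out 1 library), BCL2L11 (−0.23 with TMM) and PLCXD2 (−0.10 with TMM). No test on reads was run for the interaction, since reads were recovered only without NCS. Genes with a handful of DMSO reads have sizes that depth and the pseudocount limit.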
